A study of Mus musculus with 18 samples.

Results

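The 10 genes described here encode the cytoskeleton and growth cone proteins of young neurons: the neuronal tubulin Tubb3, the microtubule-associated proteins Map2, Mapt and Dcx, the stathmins Stmn1, Stmn2 and Stmn3, the neurofilament subunits Nefl and Nefm, and the growth cone protein Gap43. They were taken by symbol from a table of 54307 genes, and each of the 10 matched 1 row. The genes on which the results below turn most carry the identifiers ENSMUSG00000018411.18 (Mapt), ENSMUSG00000015222.19 (Map2), ENSMUSG00000062380.5 (Tubb3), ENSMUSG00000027581.13 (Stmn3) and ENSMUSG00000027500.11 (Stmn2). The table gives poly(A) RNA of 18 libraries from primary mouse brain cultures, in 6 groups of 3: neurons, astrocytes and microglia, each as cells and as the small extracellular vesicles (sEVs) that those cultures released. RNA of cells came from a portion of the cultures that yielded the sEVs. Per the series' design text, the comparison of sEVs with cells addresses whether each cell type packages its own set of mRNAs. Strain, age, sex, treatment and the way the cultures were purified are not given in the sources used here, and nothing says that the 3 replicates of a group were separate cultures, so p-values measure the spread between these samples, which may be technical.

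Microtubules are hollow polymers of alpha- and beta-tubulin. In neurons they are stabilised by proteins of the MAP2 and tau family, of which Map2 marks dendrites and tau, the product of Mapt, axons, and they are destabilised by stathmins, which bind free tubulin. Neurofilaments give axons their calibre, and Gap43 sits under the membrane of growth cones and regenerating axon tips. Map2 mRNA is a textbook case of an mRNA carried into dendrites, and Mapt mRNA of one found in axons.

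Close relatives stand among the 10 genes, so that some pairs compared below are similar in sequence. Shown here are the 90 bases of coding sequence in which Mapt and Map2 are most alike without a gap, overlapping the microtubule-binding repeats, and the same for Stmn2 and Stmn1. Capitals mark the bases that differ. Sequences are from the GENCODE vM21 transcripts on GRCm38, 5′ to 3′ on the coding strand, counted from 1 at the first base of the start codon: 1050 to 1139 of Mapt, 5244 to 5333 of Map2, 317 to 406 of Stmn2 and 215 to 304 of Stmn1.
Mapt: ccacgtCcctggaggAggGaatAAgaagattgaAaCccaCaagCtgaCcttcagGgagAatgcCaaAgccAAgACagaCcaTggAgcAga
Map2: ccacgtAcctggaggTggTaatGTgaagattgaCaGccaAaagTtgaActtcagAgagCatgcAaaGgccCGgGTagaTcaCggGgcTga
Stmn2: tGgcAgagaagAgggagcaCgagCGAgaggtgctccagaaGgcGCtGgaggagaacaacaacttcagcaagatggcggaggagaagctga
Stmn1: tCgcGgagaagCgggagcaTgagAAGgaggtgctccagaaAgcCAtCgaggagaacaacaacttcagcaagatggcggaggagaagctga
Mapt and Map2 were identical at 68 of the 90 bases (75.6%), in runs of at most 9 bases. Stmn2 and Stmn1 were identical at 79 (87.8%), with a run of 43 bases without a difference. Over all their transcripts, Mapt, Stmn3 and Gap43 shared no run of 31 bases with another gene of that annotation, and Tubb3 shared 43 runs (2.3%) with Tubb6. Stmn1 shared 389 runs (19.9%) with the predicted pseudogene Gm11223, so its reads may be split. Nefl and Nefm shared 1078 runs on opposite strands, 32.2% of those of Nefl and 18.8% of those of Nefm. The library kit does not mark strand, so part of the Nefl and Nefm reads cannot be told apart.

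Values are the authors' normalized counts, whose sum per library ran from 36947428 to 69276566. At a value of 10 or more, 13494 to 18131 genes were listed per cell library and 7840 to 15951 per sEV library. Marker lists told the labelled cultures apart, with mixtures. Summed over 12 other neuronal markers such as Snap25 and Syt1, neuron cells held 145921 to 175696 normalized counts, astrocyte cells 2872 to 5028 and microglia cells 817 to 1259. The 9 astrocyte markers summed to 136630.0 to 149749 in neuron cells and to 946749 to 1172010.0 in astrocyte cells, and 8 oligodendrocyte lineage markers to 233033 to 415491 in astrocyte cells. The 9 microglia markers summed to 398227 to 442222 in microglia cells, 2742 to 5746 in astrocyte cells and 2626.5 to 2825 in neuron cells. In the astrocyte and neuron cells Tmem119 and Cx3cr1 were at 40.3 or less, so other markers of the list carried nearly all of these sums. The authors' deposited table also holds a mean per group. It equals the mean of the 3 replicates, to within 0.01 plus 0.01% of the value, for every gene with a value in 5 groups, but for 1477 of 18481 genes (7.99%) in microglia sEVs. Which libraries that mean was taken from is not given in the sources used here, and this doubt touches every microglia sEV value below, all of which come from the replicate columns. What the mixtures add to the values below was not tested, and in bulk RNA fewer cells of a type and less RNA per cell cannot be told apart.

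In neuron cells the 10 genes were abundant. Summed, they took 297928 to 349642 normalized counts per library, against 33784 to 39681 in astrocyte cells and 4235 to 6570 in microglia cells. Per kilobase of the longest coding transcript, Stmn1 was the highest in neuron cells, at 57520.0 ± 3290.0 (SD, n = 3, as throughout), followed by Gap43 at 33970.0 ± 6590.0, Stmn2 at 33300.0 ± 5476, Stmn3 at 27170.0 ± 2712 and Tubb3 at 16040.0 ± 583. Map2 at 5172 ± 642, Mapt at 4637 ± 581, Nefl at 2932 ± 958 and Dcx at 1015 ± 141 were lower, and Nefm at 255 ± 60.2 was the lowest. On the same scale in neuron sEVs, Stmn1 stood at 62540.0 ± 10280.0 and Gap43 at 44170.0 ± 2089, and Mapt, at 15290.0 ± 5597, stood above Tubb3 at 5828 ± 1749 and Map2 at 1998 ± 275.

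**Figure D1:**
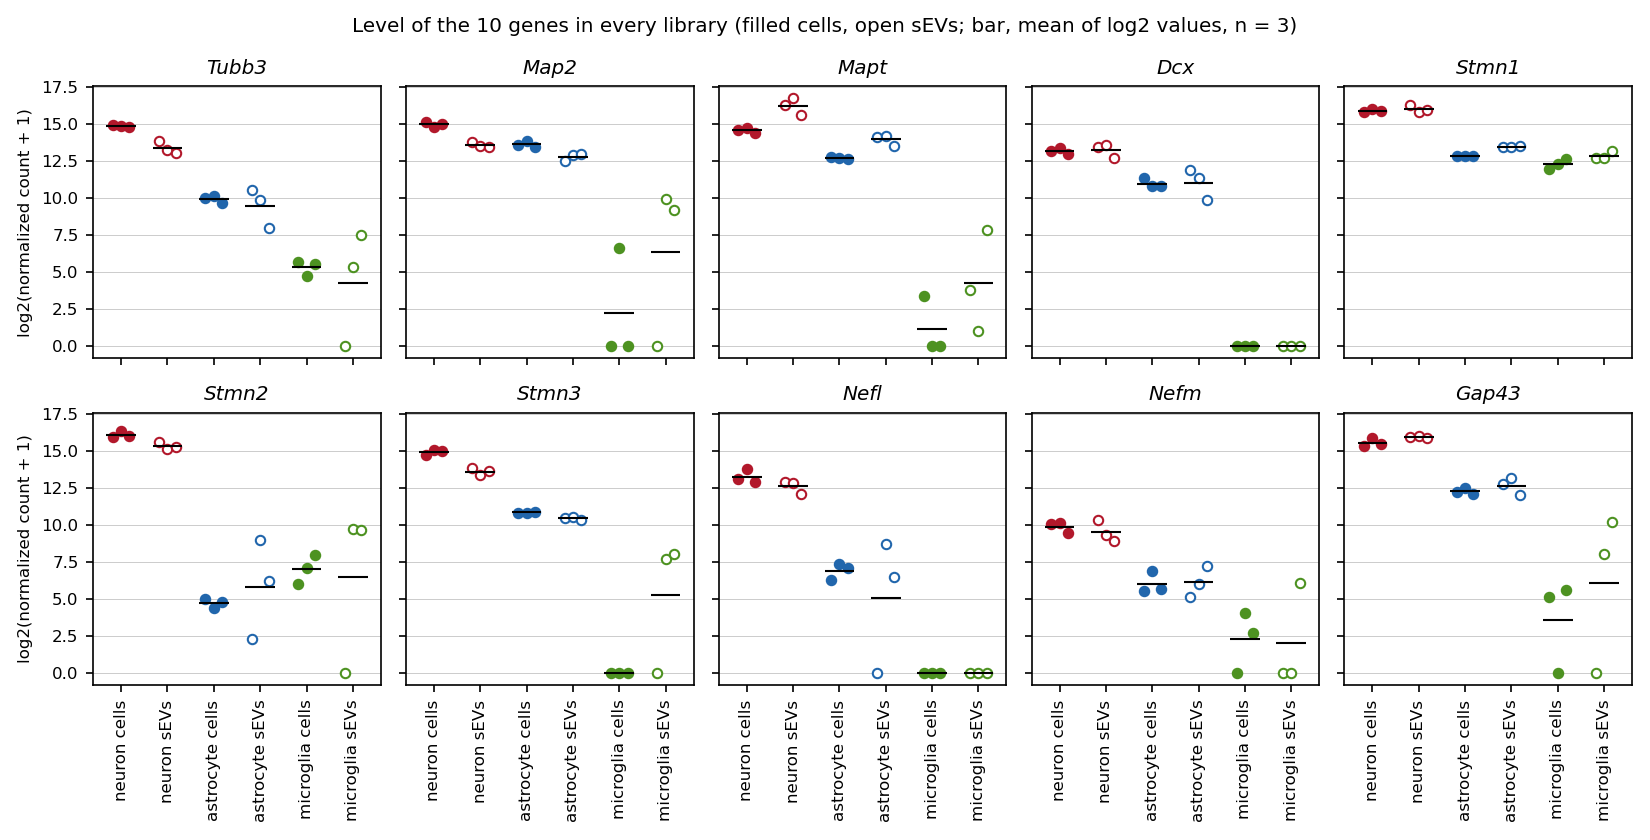
Level of each of the 10 genes in all 18 libraries, as log2 of the normalized count plus 1, by cell type and by cells (filled) or sEVs (open), with the mean of each 3 libraries as a bar. For every gene the highest library is a neuron library, Stmn1 stays high in all 6 groups, and the microglia sEV libraries spread from 0 upwards for Tubb3, Map2, Stmn2, Stmn3, Nefm and Gap43.

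In neuron sEVs Mapt mRNA stood above its level in neuron cells, 3.16-fold, and Tubb3, Map2 and Stmn3 stood 2.49- to 2.83-fold below theirs. Stmn2 was lower by less, and Stmn1 and Dcx were close to their levels in cells. The comparison was fitted with limma on log2 of the normalized count plus 1. A call below means a p under 0.05 after Benjamini-Hochberg adjustment over all genes tested. In the fit of all 18 libraries, 0 of the 10 genes were called, and 0 had an unadjusted p under 0.05, where 11.1% of all genes were called higher and 18.9% lower in neuron sEVs. That fit gives each gene 1 spread for all 6 groups. For 9 of the 10 genes the SE was larger with all 18 libraries than with the 6 neuron libraries alone, as for Map2 at 2.05 and 0.18, and for Stmn1 it was smaller, at 0.15 and 0.19. In a fit of the 6 neuron libraries, 1 gene was called higher (Mapt) and 4 lower (Tubb3, Map2, Stmn2 and Stmn3), where 21.9% of all genes were called higher and 33.0% lower. The differences themselves are the same in both fits, and "rose" and "fell" below refer to the 6 neuron libraries. Where groups are said not to overlap, the share of all genes with such groups is not given. Lack of overlap therefore describes the values and is no support apart from the p-values. The median over the 10 genes was -0.48 and over all genes tested -0.47 with 18 libraries and -0.45 with 6. Ranked from the lowest difference among all genes of the 18-library fit, Tubb3, Map2 and Stmn3 lay at percentiles 32.11 to 35.05. Stmn2 lay at 44.91 and Mapt at 85.99, so many genes differed by more.

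Mapt mRNA rose in neuron sEVs and Map2 mRNA fell. Mapt stood at 24557, 27307 and 21214 normalized counts in the 3 neuron cell libraries and at 81549, 109078 and 50318 in the sEV libraries. All 3 sEV libraries lay above all cell libraries, and the lowest sEV library was still well above the highest cell library. The difference was 1.66 on the log2 scale, with an SE of 0.29 and a limma adjusted p of 0.00154 in the 6 neuron libraries (SE 1.23 and adjusted p = 0.358 with all 18). Map2 stood at 35904, 27998 and 33191 in cells and at 14447, 11891 and 11168 in sEVs. Its groups did not overlap either, in the opposite direction: the difference was -1.37 ± 0.18 (SE, limma adjusted p = 0.000328; ± 2.05 and 0.687 with all 18), a 2.59-fold lower level. Within each library, where scaling cancels, the ratio of Mapt to Map2 normalized counts was 0.684, 0.975 and 0.639 in neuron cells and 5.65, 9.17 and 4.51 in neuron sEVs, 2 groups far apart. The pair sets a gene called higher against a gene called lower in these libraries. The ratio therefore restates those calls free of scaling and is no separate support.

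The neuronal beta-tubulin fell with Map2. Tubb3 was at 30759, 30390.4 and 28717 normalized counts in neuron cells and at 14612, 9542 and 8509 in neuron sEVs. The cell libraries lay close together and above every sEV library, and the difference was -1.50 ± 0.22 (limma adjusted p = 0.000625; ± 1.28 and 0.433 with all 18). Dcx, the doublecortin that bundles microtubules in migrating neurons, was at 9323, 10422 and 7872 in cells and at 11271, 12291 and 6612 in sEVs. Its sEV libraries lay on both sides of the cell libraries, and the difference of 0.09 ± 0.25 was not called (limma adjusted p = 0.786).

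The 3 stathmins did not move together. Stmn3 was at 27346, 33099.5 and 32136 normalized counts in neuron cells and at 14305, 10592 and 12429 in sEVs. Every sEV library was below every cell library, and the difference was -1.32 ± 0.17 (limma adjusted p = 0.000395; ± 1.40 and 0.544 with all 18). Stmn2, known as SCG10 and found in growth cones, was at 61333, 82074 and 63706 in cells and at 48184, 36104 and 38935 in sEVs. Its groups were also apart, by a smaller step of -0.75 ± 0.20 (limma adjusted p = 0.0147; ± 2.02 and 0.847 with all 18). Stmn1, the stathmin that dividing cells also make, was at 58293, 64914 and 59703 in cells and at 78667, 58121 and 62082 in sEVs. These values overlapped, and the difference of 0.11 ± 0.19 was not called (limma adjusted p = 0.650). The ratio of Stmn1 to Stmn3 was 2.13, 1.96 and 1.86 in neuron cells and 5.5, 5.49 and 5.0 in neuron sEVs, with no overlap, although the coding sequences of the pair are 76.7% identical in their most similar 90 bases. The ratio of Stmn1 to Stmn2 was 0.950, 0.791 and 0.937 in neuron cells and 1.633, 1.61 and 1.595 in neuron sEVs. Both ratios restate the differences of these genes and are no separate support.

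Neurofilament mRNAs were lower in neuron sEVs by amounts that missed the threshold. Nefl, the light subunit on which neurofilaments assemble, was at 8541, 13607 and 7581 normalized counts in cells and at 7613, 7042 and 4307 in sEVs. The groups overlapped by 1 library, and the difference was -0.64 ± 0.29 (limma adjusted p = 0.0911). Nefm, the medium subunit, was at 1049.9, 1081 and 683 in cells and at 1303, 638 and 481 in sEVs, with overlap and a difference of -0.32 ± 0.40 (limma adjusted p = 0.526). Gap43 was at 40822, 58748 and 45128 in cells and at 63685, 65092 and 59396 in sEVs. All its sEV libraries were above all its cell libraries, by a margin that is narrow beside the spread of the cells, and the difference of 0.40 ± 0.20 was not called (limma adjusted p = 0.122).

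**Figure D2:**
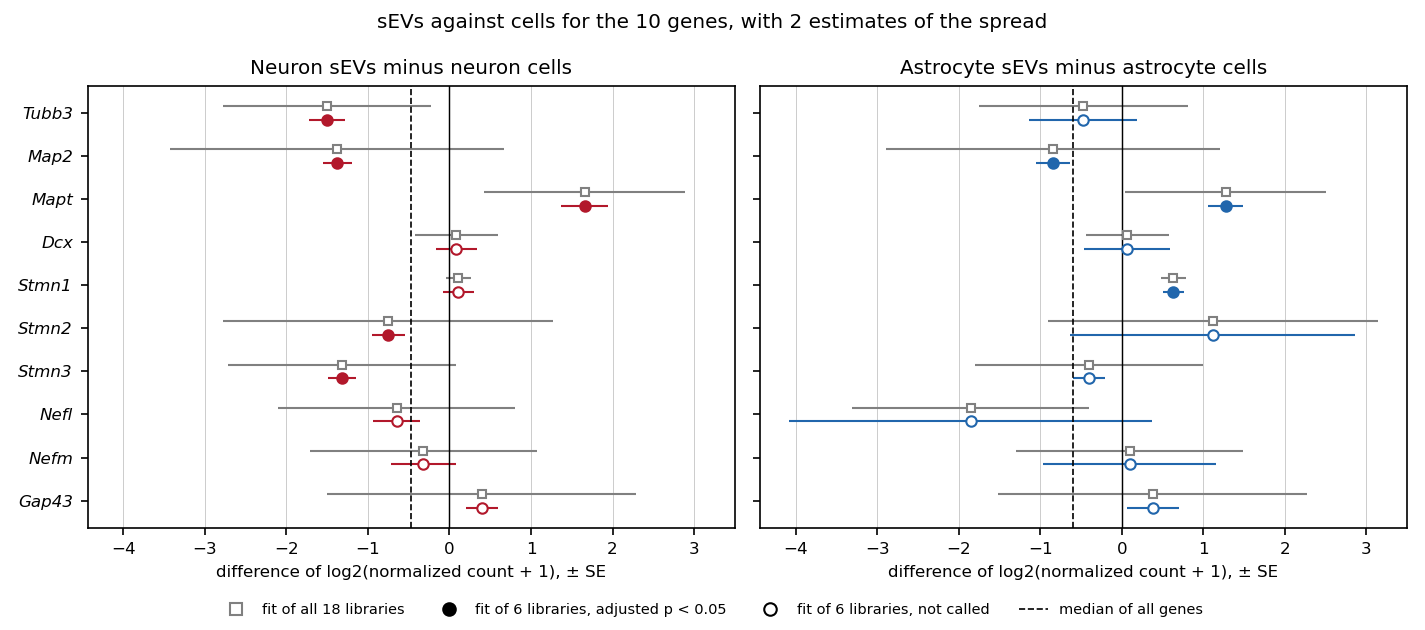
Difference between sEVs and cells on the scale of log2 of the normalized count plus 1 for each gene in neurons (left) and astrocytes (right), with ± SE from the fit of all 18 libraries (grey squares) and of the 6 libraries of the cell type (circles, filled where the limma adjusted p was under 0.05). The dashed line is the median of all genes. Both estimates share the same difference, and the grey bars are the longer except for Stmn1 in neurons and for Dcx and Nefl in astrocytes.

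Which libraries and which scaling were used changed part of this. Mapt stayed called higher, and Tubb3, Map2, Stmn2 and Stmn3 lower, in all 10 fits of 6 neuron libraries or of 5 with 1 left out: adjusted p reached at most 0.00416 for Mapt, 0.00228 for Tubb3, 0.00152 for Map2, 0.0423 for Stmn2 and 0.00165 for Stmn3. Gap43 was called higher in the fit without neuron cell replicate 2 (adjusted p = 0.0403), its highest cell library. Scaling each library to the same total moved the median of all genes in the 18-library fit from -0.47 to -0.77, and quantile normalization moved it to 0.07. The calls over all genes went from 2185 higher and 3705 lower to 1753 and 4424 with equal totals and to 3615 and 3439 with quantile normalization. The uncalled differences of Dcx (equal totals), Stmn1 (both) and Nefm (quantile normalization of the 6 neuron libraries) changed sign under these, while those of the 5 called genes kept theirs. In the 6 neuron libraries Nefl was also called lower with equal totals (adjusted p = 0.0175) and with quantile normalization.

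Astrocyte cultures listed all 10 genes as well, at lower levels. Stmn1 was at 7241, 7349 and 7490 normalized counts in astrocyte cells and at 11385, 11121 and 11753 in astrocyte sEVs. Both groups were tight and apart, and Stmn1 was the 1 gene of 10 called with 18 libraries, at 0.63 ± 0.15 (limma adjusted p = 0.00696), where 8.0% of all genes were called higher and 18.6% lower. With equal totals per library it was 0.46 (limma adjusted p = 0.0543). In the 6 astrocyte libraries, where 12.1% of genes were called higher and 19.2% lower, Mapt and Stmn1 rose and Map2 fell. Stmn1 lost its call in that fit without any 1 of the astrocyte cell libraries (limma adjusted p of 0.0693 to 0.111) and with equal totals (0.115).

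Mapt was at 6916, 6607 and 6262 normalized counts in astrocyte cells and at 18035, 19045 and 11775 in astrocyte sEVs. As in neurons, every sEV library was above every cell library, by 1.27 ± 0.22 (limma adjusted p = 0.00527 with the 6 astrocyte libraries; ± 1.23 and 0.505 with all 18). Map2 was at 12443, 15031 and 11134 in cells and at 5743, 7667 and 8149 in sEVs. Its groups were apart in the other direction, by -0.85 ± 0.20 (limma adjusted p = 0.0213, up to 0.105 in the other fits of these libraries; 0.844 with all 18). The ratio of Mapt to Map2 was 0.556, 0.440 and 0.563 in astrocyte cells and 3.14, 2.48 and 1.45 in astrocyte sEVs. The ratio of Stmn1 to Stmn3 was 4.05, 4.07 and 4.03 in cells and 8.0, 7.64 and 9.34 in sEVs, so that neither ratio overlapped between cells and sEVs. That of Stmn1 to Stmn2 did overlap, at 241.7 to 368.4 in astrocyte cells and 2972, 22.31 and 160.2 in astrocyte sEVs. In these cells 12 other neuronal markers summed to at most 5028 normalized counts, less than Map2 or Mapt alone, and the oligodendrocyte lineage markers to at least 233033. Which cells of the astrocyte cultures carried Map2 and Mapt was not tested.

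**Figure D3:**
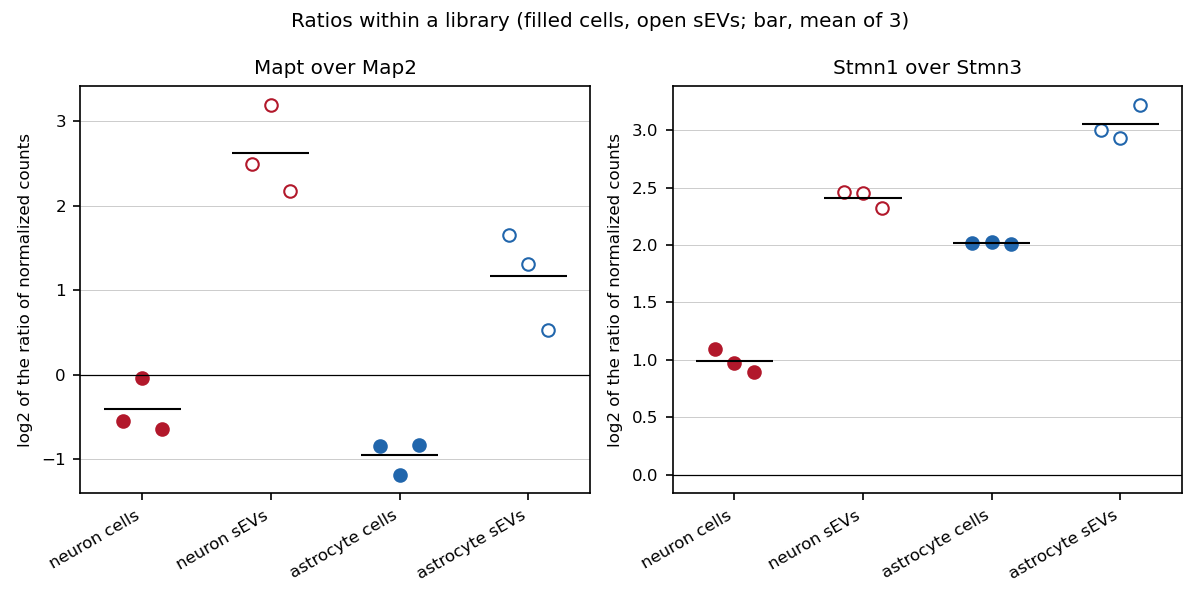
Ratio of Mapt to Map2 (left) and of Stmn1 to Stmn3 (right) within each neuron and astrocyte library, as log2 of the ratio of normalized counts, for cells (filled) and sEVs (open), with the mean of 3 as a bar. In each cell type the sEV ratios lie above the cell ratios for both pairs.

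The other 7 genes were not called in astrocyte sEVs in either fit. Gap43 was at 4739, 5689 and 4247 normalized counts in cells and at 6770, 9249 and 4042 in sEVs, Stmn3 at 1789, 1804 and 1860.0 and at 1423, 1455 and 1259, and Tubb3 at 1011, 1140.3 and 811 and at 1483, 942 and 250.1. Only Stmn3 of these had groups apart, at -0.40 ± 0.19 (limma adjusted p = 0.164 in the 6 astrocyte libraries). Low genes differed widely between the astrocyte sEV libraries: Stmn2 was at 3.83, 498 and 73.4 and Nefl at 0, 403 and 88.6, against 19.9 to 29.96 and 76.2 to 161 in cells. Their differences depended on the setting: Stmn2, at 1.11 in both fits, was called higher at 4.41 with quantile normalization of the 6 libraries (limma adjusted p = 0.0167), and Nefl, at -1.85, was called lower at -3.66 with 17 libraries, without astrocyte sEV replicate 2 (0.0478).

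Apart from Stmn1, the genes were at 241 normalized counts or less in microglia cells, and ran from 0 to 1155 in microglia sEVs. Dcx and Nefl were listed at 0 in all 6 microglia libraries, and 5 of the 10 genes passed the filter on low values in the fit of these libraries. Stmn1 was at 4080.4, 4994 and 6231 normalized counts in microglia cells and at 6623, 6744 and 9229 in microglia sEVs. Its groups lay apart, and the difference of 0.57 ± 0.15 was called with 18 libraries (limma adjusted p = 0.0138) and not with the 6 microglia libraries (± 0.22, adjusted p = 0.111). The authors' deposited microglia sEV mean for Stmn1, 4481, is below the mean of the microglia cell libraries, 5102. That mean therefore gives the opposite direction to the replicate columns. Among all genes in the 18-library fit, 5.08% were called higher and 21.2% lower. Stmn3 was listed at 0 in the 3 cell libraries and at 0, 200.4 and 252 in the sEV libraries, and the 18-library fit called it higher (limma adjusted p = 0.0124). It passed the filter of that fit only through neuron and astrocyte libraries and was among the 5 genes not tested with the 6 microglia libraries. No fold is given against a group at 0, and the call was lost without microglia sEV replicate 2 (adjusted p = 0.0533) or replicate 3 (0.0508). With the 6 microglia libraries 0 of the 5 genes tested were called by limma and 1 had an unadjusted p under 0.05, where 6.71% of all genes were called higher and 21.6% lower.

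The sEV libraries of microglia were unlike each other for these genes. Replicate 1 was at 0 for 8 of the 10, whereas Map2 was at 993 and 570 normalized counts in replicates 2 and 3, Stmn2 at 853 and 800.1 and Gap43 at 259 and 1155. Microglia cells held at most 96.4, 241 and 47.3 of these. The 12 other neuronal markers summed to 1808 to 3690 in microglia sEVs and to 817 to 1259 in microglia cells, and their part in the values was not tested. For Tubb3, the authors' deposited table gives a microglia sEV mean of 4200.5, above the highest replicate in the same table, 179.9. The same held for Stmn2 (2118 against 853.5), Mapt (318.5 against 231.6) and Stmn3 (315.7 against 252.5). For Map2, Stmn1, Nefm and Gap43 the deposited mean was below the mean of the replicates, and for Dcx and Nefl both were at 0.

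Whether sEVs differ from cells by unlike amounts in the 3 cell types was tested as a difference of differences. Between neurons and microglia 1 of the 10 genes was called, Stmn3, at -6.53 ± 1.98 (limma adjusted p = 0.0294), where 12.9% of genes were called higher and 7.82% lower. The microglia part of that value is measured against 3 cell libraries at 0 and rests on the pseudocount, so neither its size nor its SE can be read as a change in level, and the call was lost in 11 of the fits that left out 1 library. Between neurons and astrocytes limma called 0 of 10 with 18 libraries, with 1 at an unadjusted p under 0.05, against 2.63% of genes higher and 2.47% lower. The Mapt effect was higher in neurons by 0.38 ± 1.74 and the Map2 effect lower by 0.53 ± 2.90, with SEs from that fit. In a fit of the neuron and astrocyte libraries alone, added after the data were seen, Stmn3 differed between them, at -0.92 ± 0.22 (limma adjusted p = 0.0347), where 2.73% of genes were called higher and 2.6% lower. There the Mapt difference was 0.38 ± 0.37 (limma adjusted p = 0.608). The differences of Map2, at -0.53 ± 0.25 (limma adjusted p = 0.274), and of Stmn1, at -0.52 ± 0.18 (limma adjusted p = 0.115), were over 2 times their SE and were not called. Between astrocytes and microglia limma called 0 of 10, again with 1 at an unadjusted p under 0.05, against 8.77% higher and 4.53% lower. These comparisons share libraries with each other and with those above.

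**Figure D4:**
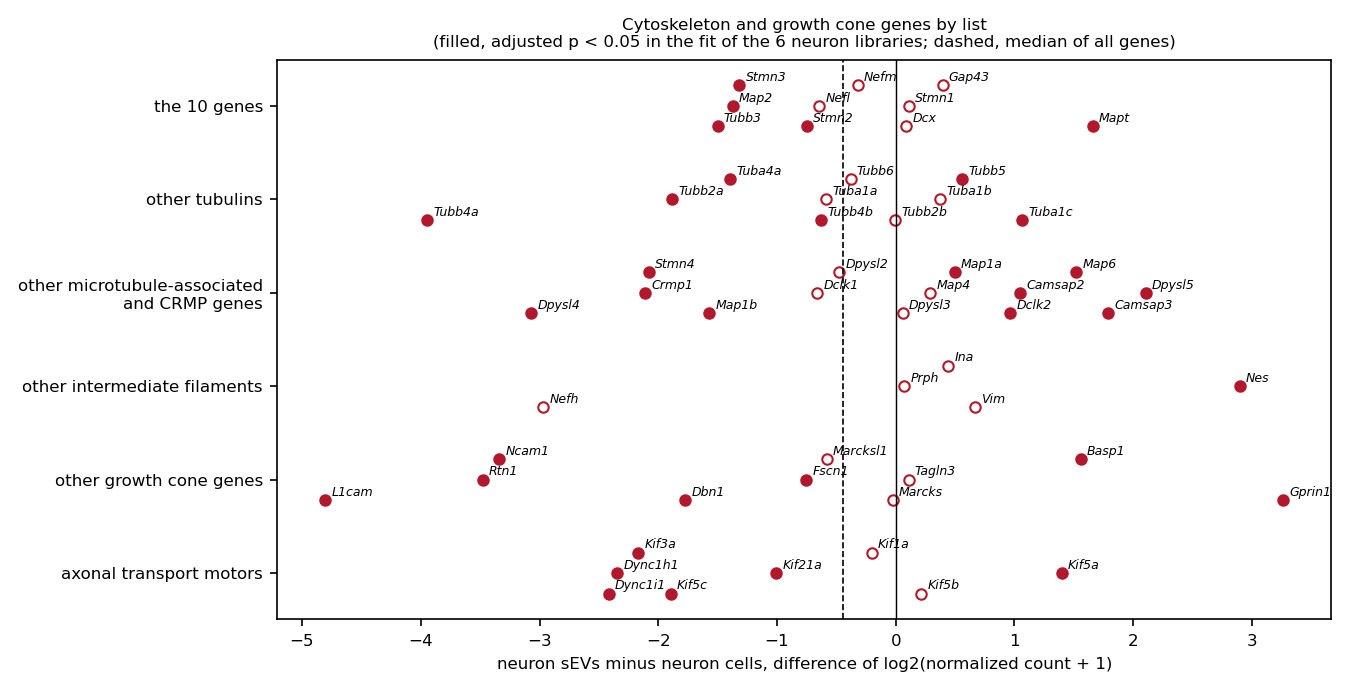
Difference between neuron sEVs and neuron cells, on the scale of log2 of the normalized count plus 1, for the 10 genes and 47 related genes in 5 lists, filled where the limma adjusted p was under 0.05 in the 6 neuron libraries; the dashed line is the median of all genes and points are spread vertically for legibility. Every list of 5 or more genes holds values on both sides of 0.

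The other genes of the neuronal cytoskeleton also went both ways in neuron sEVs. Of 47 such genes in 5 lists, 12 were called higher and 18 lower in the 6 neuron libraries (6 and 7 with all 18), and their median difference was -0.38. These are 25.5% and 38.3% of the lists, beside 21.9% and 33.0% of all genes tested in that fit (12.8% and 14.9% beside 11.1% and 18.9% with all 18), so the counts are near the background. The shares over all genes, 21.9% higher and 33.0% lower, also stand behind each list below. Among the 10 other tubulins 2 rose and 4 fell: Tubb5 rose by 0.56 ± 0.17 (adjusted p = 0.0249) and Tubb2a fell by 1.88 ± 0.16, from between 44693 and 47370.2 normalized counts in cells to between 10680 and 13702 in sEVs. Tubb4a fell by 3.95 ± 0.17, and Tuba1b, at 0.37 ± 0.15, was not called (limma adjusted p = 0.0702). Tubb3 was therefore 1 of 5 beta- and alpha-tubulin genes called lower.

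Of 14 other microtubule-associated and collapsin response mediator genes, 6 rose and 4 fell (42.9% and 28.6%, beside 21.9% and 33.0% of all genes). Dpysl5, a collapsin response mediator, rose by 2.11 ± 0.28, and Map6, which stabilises microtubules against cold, rose by 1.52 ± 0.23 beside Mapt. Camsap2, which binds microtubule minus ends, rose by 1.05 ± 0.23, and Dpysl4 fell by 3.07 ± 0.47 (limma adjusted p of 0.000408 to 0.00513 for these 4). Among 5 other intermediate filament genes, Nes, the nestin of neural progenitors, rose by 2.90 ± 0.34 (adjusted p = 0.000206), while the neurofilament heavy subunit Nefh, at -2.97 ± 1.30, Vim, at 0.67 ± 0.36, and Ina, at 0.44 ± 0.19, were not called, like Nefl and Nefm. A list of 5 progenitor and cycling markers summed to 2618 to 6061 in neuron cells and to 5649.8 to 8582 in neuron sEVs, and its part in the level of Nes was not tested.

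Of 10 other growth cone genes 2 rose and 5 fell (beside 21.9% and 33.0% of all genes). Basp1, a growth cone protein related in function to Gap43, rose by 1.56 ± 0.22, whereas Rtn1 fell by 3.48 ± 0.20, the actin-binding drebrin Dbn1 by 1.77 ± 0.21 and the actin bundler Fscn1 by 0.75 ± 0.27 (limma adjusted p = 0.0426 for Fscn1 and under that for the other 3). Of 8 axonal transport motors 1 rose and 5 fell (12.5% and 62.5%, beside the same shares of all genes). The kinesin-2 subunit Kif3a fell by 2.17 ± 0.21, the kinesin-1 heavy chain Kif5c by 1.90 ± 0.21, and the dynein chains Dync1h1 and Dync1i1 by 2.35 ± 0.25 and 2.42 ± 0.18.

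The 12 synaptic and other neuronal markers had a median difference of -2.74 in neuron sEVs, against -0.48 over the 10 cytoskeleton and growth cone genes. Of the 12 markers 10 were called lower and 0 higher by limma in the 6 neuron libraries (33.0% and 21.9% of all genes). With all 18 libraries 33.3% of the markers were called lower and 0.0% higher, beside 18.9% and 11.1% of all genes. The sum of the markers in the neuron libraries was 145921 to 175696 normalized counts in cells and 21101 to 39289 in sEVs. Over the same libraries the sum of the 10 genes was 297928 to 349642 in cells and 254235 to 335635 in sEVs, 2 ranges that overlap. The 9 astrocyte markers summed to 136630 to 149749 in neuron cells and to 114494 to 161487 in neuron sEVs, above the 12 neuronal markers there. The 8 oligodendrocyte lineage markers summed to 32489 to 95424 in neuron cells and to 17559 to 25112 in neuron sEVs. Which cells of the neuron cultures released the sEV mRNAs was not tested.

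The 10 genes also differed between the cell types. They were listed as genes of neurons, so counts of calls in favour of neurons describe the list and are no separate support. Between neuron and astrocyte cells Stmn2 and Nefl differed by the most and Map2 by the least. Between neuron and astrocyte cells 7 of the 10 genes were called higher in neurons and 0 lower, where 22.1% of genes were called higher and 10.4% lower. Stmn2 differed by 11.36 ± 0.44 (limma adjusted p = 2.55e-06), from 19.9 to 29.96 normalized counts in astrocyte cells, and was followed by Nefl at 6.33 ± 0.42 and Tubb3 at 4.93 ± 0.26. Gap43 at 3.29 ± 1.24 (adjusted p = 0.0756), Mapt at 1.88 ± 0.80 (0.108) and Map2 at 1.33 ± 1.52 (0.555) were not called, although their neuron libraries lay above their astrocyte libraries. The fit of the neuron and astrocyte libraries alone called 10 of 10 higher (26.3% of genes higher, 12.2% lower). Map2, a common marker of neurons, had the smallest difference of the 10 between these cultures, 2.52-fold.

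Against microglia cells all 10 genes were called higher in neuron cells (51.8% of genes higher, 19.9% lower), by 3.60 ± 0.14 for Stmn1 and by 7.61 (Nefm) to 14.91 (Stmn3) for the other 9, with Stmn2 at 9.09. These values rest on the pseudocount for Dcx, Stmn3 and Nefl, which were listed at 0 in every microglia cell library. They rest on it in part for Mapt and Map2, at 0 in 2 of the 3, and for Gap43 and Nefm, at 0 in 1. The same zeros enter the comparison of astrocyte with microglia cells. Only Tubb3, Stmn1 and Stmn2 passed the filter on the microglia cell libraries alone. The others were tested only because they were higher in neuron or astrocyte cells, so the counts of calls against microglia were in part fixed by the filter. Between astrocyte and microglia cells 9 were called higher in astrocytes and 1 lower (43.6% and 20.8% of genes). The exception was Stmn2, at 61.2, 132 and 241 normalized counts in microglia cells and 29.96, 19.9 and 26.3 in astrocyte cells, a difference of -2.27 ± 0.44 (limma adjusted p = 0.00188) at a level far below that of neurons.

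Among sEVs fewer differences between neurons and astrocytes were called. Between neuron and astrocyte sEVs 2 of 10 were called, Stmn1 at 2.53 ± 0.16 (limma adjusted p = 3.97e-05) and Nefl at 7.54 ± 1.95 (0.0369), where 11.8% of genes were called higher and 3.13% lower. Nefl lost that call without any 1 of the neuron sEV libraries (limma adjusted p of 0.129 to 0.162). It also lost it without astrocyte sEV replicate 3 or microglia sEV replicate 2 or 3 (0.0514 to 0.0557). In the fit without microglia 10 of 10 were called higher (16.9% of genes higher, 5.27% lower). Against microglia sEVs all 10 were called higher in neuron sEVs (45.3% of genes higher, 13.6% lower). Map2 and Stmn2 lost that call without any 1 of the neuron sEV libraries (limma adjusted p of 0.0571 to 0.0675). Between astrocyte and microglia sEVs 5 were called higher, Tubb3, Mapt, Dcx, Stmn1 and Gap43 (26.6% of genes higher, 12.9% lower). Apart from Stmn1, none of the genes passed the filter on the microglia sEV libraries alone. In those libraries Dcx and Nefl were at 0 in all 3, and replicate 1 was at 0 for 8 of the 10 genes. The sizes of the differences from microglia sEVs rest on the pseudocount for Dcx and Nefl, and in part for the others at 0 in replicate 1. Across the 6 groups, Map2 was the 1 gene whose neuron sEVs overlapped with astrocyte cells, whereas Mapt, Stmn1, Dcx and Gap43 had their highest mean in neuron sEVs and the other 6 in neuron cells.

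The genes whose levels over the 18 libraries were most like the mean profile of the 10 were, by Pearson's r, Cplx1 (0.978), Uchl1 (0.972), Nalf1 (0.971), Arpp21 (0.970) and Tmem151b (0.970). Cplx1 encodes a complexin of the presynaptic terminal and Uchl1 a ubiquitin hydrolase abundant in neurons. Of the 10 themselves, Tubb3 was the closest to their mean (0.966) and Stmn2 the farthest (0.744). These r describe 18 libraries that share culture, fraction and scaling, and carry no test.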

How the data were processed

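Poly(A) RNA of 18 libraries was studied, 3 per group. Per the labels' protocols, a low-input kit with a poly-dT primer made the cDNA, which was amplified by PCR and tagmented. The authors deposited 1 table of normalized counts (a signal, not raw counts), which per the submitters' processing notes came from Salmon 1.8.0, GRCm39 and DESeq2. Of the values above 0 and below 100, 2.86 to 7.89% per library were whole multiples (to within 0.001) of the library's commonest value, so no step of 1 read was found and no count model was run. Read depth is unknown from these values.

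Differences were computed in R 4.3.3 with limma 3.58.1 (trend) on log2(normalized count + 1), for genes at 10 or more in 3 or more of the libraries fitted, with Benjamini-Hochberg adjustment over all genes at 0.05. A fit of all 18 libraries gave sEVs against cells, and fits of 9 cell or 9 sEV libraries gave cell type pairs. The pseudocount shrinks the fold of a low gene, but a single library at 0 can enlarge a difference or turn its sign against that of the mean counts. For Nefl in astrocytes the difference was -1.85, although the mean count was 164 in sEVs and 124 in cells. All 10 genes passed the filter except in the fit of the microglia libraries. A run on simulated data gave each gene the same spread in every group, so it cannot show how the fit behaves where spread differs between groups. Alternatives were library weights, scaling, pseudocount, filter, fewer libraries, a replicate block and leaving out each library.

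The genes and lists were chosen with earlier results of these data known. Named were all 10 genes, up to 4 genes per related list by smallest p in neuron sEVs against cells, and the 5 genes most correlated with the mean profile of the 10 (predicted genes left out). Tmem119, Cx3cr1, Snap25 and Syt1 are named as examples of marker lists. Sequence and transcript length came from GENCODE vM21 (GRCm38). The table's build differs, so coordinates are left out.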

Additional observations from a re-analysis of the deposited data

Results flagged for a closer look

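The test of whether sEVs differ from cells by the same amount in neurons and microglia was past the threshold for Stmn3, which was at 0 in 4 of the 6 microglia libraries. It gave -6.53 (log2, neuron minus microglia; limma adjusted p = 0.0294). In neurons Stmn3 was lower in all 3 sEV libraries, and in microglia it was listed at 0 in all 3 cell libraries and in sEV replicate 1. Stmn3 passed the filter only through neuron and astrocyte libraries. The value rests on microglia sEV replicates 2 and 3 and on the pseudocount, and leaving out 1 library gave adjusted p between 0.0511 and 0.0607 in 11 cases.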

How the results depend on the processing

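Of 48 calls of single genes in the comparisons as described, 36 held under every alternative run for them. Over all genes, neuron sEVs had 2185 higher and 3705 lower calls with 18 libraries and 3748 and 5635 with 6. The number of the 10 genes called changed with the libraries fitted and with the scaling. In neuron sEVs against cells, 0 were called higher and 0 lower with 18 libraries. The 6 neuron libraries gave 1 and 4, the same libraries with equal totals, quantile normalization or the block 1 and 5, the neuron and astrocyte libraries (added after the data were seen) 1 and 3, and library weights 2 lower. In astrocytes, 1 higher and 0 lower became 0 higher with equal totals, 2 and 1 with 6 libraries or with neurons and astrocytes alone, 3 and 1 with 6 libraries and quantile normalization, and 1 lower with 6 libraries and equal totals. In microglia 2 higher became 1 with library weights, 0 with 6 libraries or these with the block, 1 with these and equal totals or quantile normalization, and 5 with quantile normalization of all. For the difference of effects, 1 lower between neurons and microglia became 2 with equal totals and 4 with quantile normalization, 0 lower between neurons and astrocytes became 1 with quantile normalization or without microglia, and 0 lower between astrocytes and microglia became 1 with library weights and 2 with quantile normalization. For sEV pairs, 5 higher in astrocytes than microglia became 3 without the filter, and 2 higher in neurons than astrocytes became 5 with library weights, 6 with a pseudocount of 10, 4 with quantile normalization and 10 without microglia. Beyond the change of libraries, the causes were not tested.

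Leaving out 1 library gave ranges. Higher calls ran from 0 to 2 in neuron, 1 to 2 in astrocyte and 0 to 4 in microglia sEVs against cells, and lower calls from 0 to 4, 0 to 1 and 0 to 0. Lower calls for the difference of effects ran from 0 to 3 between neurons and microglia and between astrocytes and microglia. Higher calls for sEV pairs ran from 1 to 7 between neurons and astrocytes and from 2 to 8 between astrocytes and microglia, and for neuron against astrocyte cells from 6 to 9. Microglia sEV replicate 1, at 0 for 8 of the genes, decided the highest values: without it 4 genes were called higher in microglia sEVs, 3 lower in both differences with microglia and 7 higher in neuron than astrocyte sEVs. Without microglia sEV replicate 3, the 8 called between astrocyte and microglia sEVs were reached. Leaving out 1 library also changed the sign of uncalled differences between sEVs and cells: Dcx and Stmn1 in neurons, Dcx, Nefm, Tubb3 (-0.47, at most 0.27), Stmn2 (1.11, at least -0.46) and Nefl (-1.85, at most 0.67) in astrocytes, and Nefm, Tubb3 and Stmn2 in microglia. One of these reached the threshold with its sign changed: Stmn2 in microglia sEVs, at -0.52 in the 18-library fit, was 2.72 (limma adjusted p = 0.049) in the fit of 6 libraries without microglia sEV replicate 1.

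Same-numbered cell and sEV libraries deviated together by r of -0.0396 to 0.0445. In neurons each cell library correlated best with the sEV library of its own number, at r of 0.00923, 0.0425 and 0.0445 for replicates 1, 2 and 3. In astrocytes and microglia not every library did. In all cell types the numbers were used only in the block fits given below, and not as pairs elsewhere. Whether libraries of the same number share a culture is not given in the sources used here. With the replicate number as a block, the 18-library fit called 0 genes in neuron sEVs, as without it, and the astrocyte against microglia sEV pair fell from 5 to 3. Between neuron and astrocyte sEVs the block lost the call of Nefl (limma adjusted p = 0.0579). In the 6 neuron libraries the block added a call of Nefl, lower (limma adjusted p = 0.0284), and in the 6 astrocyte libraries those of Stmn1 (0.0701) and Map2 (0.05004) were lost.

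Low values limit the glial comparisons most, since a library at 0 gives a log2 value that rests on the pseudocount; read depth is unknown.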
